A study of Mus musculus with 4 samples.

Results

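The genes described here are 10 that act in cystine uptake, glutathione and thioredoxin metabolism and their control by the transcription factor NRF2: Slc7a11, Slc3a2, Gclm, Gclc, Srxn1, Txnrd1, Gsr, Hmox1, Nfe2l2 and Keap1. They were taken by symbol from the 54532 genes of the count table, and each symbol matched 1 gene. They were chosen by function and with their log2 fold changes between Aβ40 and DMSO known, so these differences are given as a description. No p-value is given for a single member. Counts of members past a test stand only beside the same share or count over all genes. Neutrophils from the bone marrow of wild-type (WT) mice had been exposed at 20 µg/ml for 4 h to Aβ40, the amyloid-beta peptide that builds up in vessel walls in cerebral amyloid angiopathy. The control cells, also WT, had been given DMSO, a common solvent, for a time that neither the labels nor the design text gives. Each group held 2 libraries of RNA sequencing, named Aβ40 1 and 2 and DMSO 1 and 2. The labels give no purification method, no DMSO amount and no age or sex, and do not tell whether replicate libraries stem from different animals, so any p-value reflects only the spread between these libraries, possibly technical. By the series' design text, the experiment asked how Aβ40 leads neutrophils to form extracellular traps (NETs), webs of chromatin released by the cell.

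Cells take up cystine, the oxidised form of cysteine, through a transporter made of a light chain (SLC7A11, or xCT) and a heavy chain (SLC3A2), in exchange for glutamate. The cysteine obtained from it limits the synthesis of glutathione, the main small-molecule thiol of the cell, and glutathione and thioredoxin keep peroxides and protein thiols reduced. NRF2, encoded by Nfe2l2, switches on genes of these systems from antioxidant response elements. KEAP1 binds NRF2 and directs its degradation until oxidants or electrophiles modify KEAP1. Neutrophils make oxidants with the NADPH oxidase, and such oxidants are one known route to NETs.

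Promoters are shown for the members with the 4 lowest log2 fold changes, because they hold recognition sequences of different kinds. The RefSeq table on build GRCm38.p6 gives 300 bases a start, from 250 before it to 50 after it. It had 9 starts for 7 of the 10 members and 0 for Gclc, Gsr and Hmox1, which were thus not searched. Capitals mark matches, on either strand, to the antioxidant response element core TGACNNNGC, to the AP-1 site TGANTCA, or to the amino acid response element TGATGCAAA, which is bound by ATF4. The last motif was added after the sequence of the Slc7a11 promoter had been read.
Slc7a11 (chr3:50443564-50443863, minus strand): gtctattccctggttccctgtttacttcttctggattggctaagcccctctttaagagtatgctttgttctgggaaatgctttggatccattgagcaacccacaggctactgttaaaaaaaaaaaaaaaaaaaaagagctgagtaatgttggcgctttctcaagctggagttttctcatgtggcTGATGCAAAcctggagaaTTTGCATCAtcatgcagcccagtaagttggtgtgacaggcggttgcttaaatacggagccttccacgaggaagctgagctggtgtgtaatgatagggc
Srxn1 (chr2:152105274-152105573, plus strand): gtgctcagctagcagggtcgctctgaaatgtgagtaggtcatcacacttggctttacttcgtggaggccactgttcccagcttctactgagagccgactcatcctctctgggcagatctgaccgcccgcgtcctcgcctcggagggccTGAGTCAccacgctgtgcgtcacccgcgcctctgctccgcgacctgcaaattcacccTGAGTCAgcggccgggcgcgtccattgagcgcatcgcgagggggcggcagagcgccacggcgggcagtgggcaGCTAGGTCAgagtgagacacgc
Gclm (chr3:122245307-122245606, plus strand): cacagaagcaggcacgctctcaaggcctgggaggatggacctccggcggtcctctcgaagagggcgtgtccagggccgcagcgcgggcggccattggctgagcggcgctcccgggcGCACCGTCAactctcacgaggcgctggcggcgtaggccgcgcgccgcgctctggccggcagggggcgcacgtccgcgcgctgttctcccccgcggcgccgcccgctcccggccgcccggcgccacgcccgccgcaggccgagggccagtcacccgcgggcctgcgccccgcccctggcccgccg
Txnrd1 (chr10:82858956-82859255, plus strand, the start of 3 that held a match): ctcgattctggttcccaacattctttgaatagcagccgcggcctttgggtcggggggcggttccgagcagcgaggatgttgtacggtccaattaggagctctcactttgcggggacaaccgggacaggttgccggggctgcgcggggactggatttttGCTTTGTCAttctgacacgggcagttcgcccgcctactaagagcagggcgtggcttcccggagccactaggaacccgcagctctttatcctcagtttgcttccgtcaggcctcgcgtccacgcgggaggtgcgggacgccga

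In the Slc7a11 window the amino acid response element occurred on the plus strand with its first base at -66 and on the minus strand with its first base at -48, so that the copies face each other across 9 bases. This motif was found in 0.271% of the 32851 promoters of the table. Only 2 promoters, 1 of them that of Slc7a11, held more than 1 copy. Since the motif was added after the Slc7a11 promoter had been read, its presence there was known and nothing is read from its rarity. The antioxidant response element core was found for 4 of the 7 searched members: Gclm, Srxn1, Txnrd1 (1 of its 3 starts) and Nfe2l2. It was found in 12.4% of all promoters, where each start counts singly. The Srxn1 window also held the AP-1 site at -102 and at -45, a motif present in 7.81% of all promoters. These are letter matches within 300 bases. The windows of Slc3a2 and Keap1 and the other starts of Txnrd1 held none of the 3 motifs, which draws no limit on elements elsewhere.

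Between 17212264 and 19524125 reads were counted in a library. In DMSO 2 the summed level of 16 neutrophil markers was 105124 CPM (counts scaled to library size), against 143031 to 150684 CPM in the other 3 libraries, so that library stood apart. All 16 markers, among them S100a8, S100a9, Ly6g and Elane, were detected. The count test across 13479 genes (edgeR quasi-likelihood, Benjamini-Hochberg adjusted p under 0.05) called 17 genes higher and 0 lower with Aβ40. At an unadjusted p under 0.05 there were 877 higher and 771 lower, DESeq2 called 102 higher and 33 lower, and limma-voom called 25 higher and 0 lower. Among the 17 edgeR calls were 7 B cell markers, 1 eosinophil marker and 1 T and NK cell marker, and 0 of the 16 neutrophil markers.

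The members split into a group that was lower with Aβ40 and a group whose levels overlapped. Slc7a11 was at 49.5% of the DMSO level, and Srxn1, Gclm and Txnrd1 were at 61.5% to 65.0% of it. Slc3a2, Gsr and Hmox1 were lower by less, and Gclc, Nfe2l2 and Keap1 overlapped between the groups. Both Aβ40 libraries lay below both DMSO libraries for 7 of 10 members, which was the case for 21.9% of all tested genes, and 0 members lay above, against 23.2%. In the edgeR test 0 of 10 members were called, where 0.126% of all tested genes were, while 5 members were lower at an unadjusted p under 0.05, as were 5.72% of all tested genes. DESeq2 called 1 member, Slc7a11, and called 0.297% of its tested genes lower. The median log2 fold change of the members was -0.37, beside 0.01 over all tested genes. Since the members were listed with this comparison known, nothing is read from these counts.

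**Figure D1:**
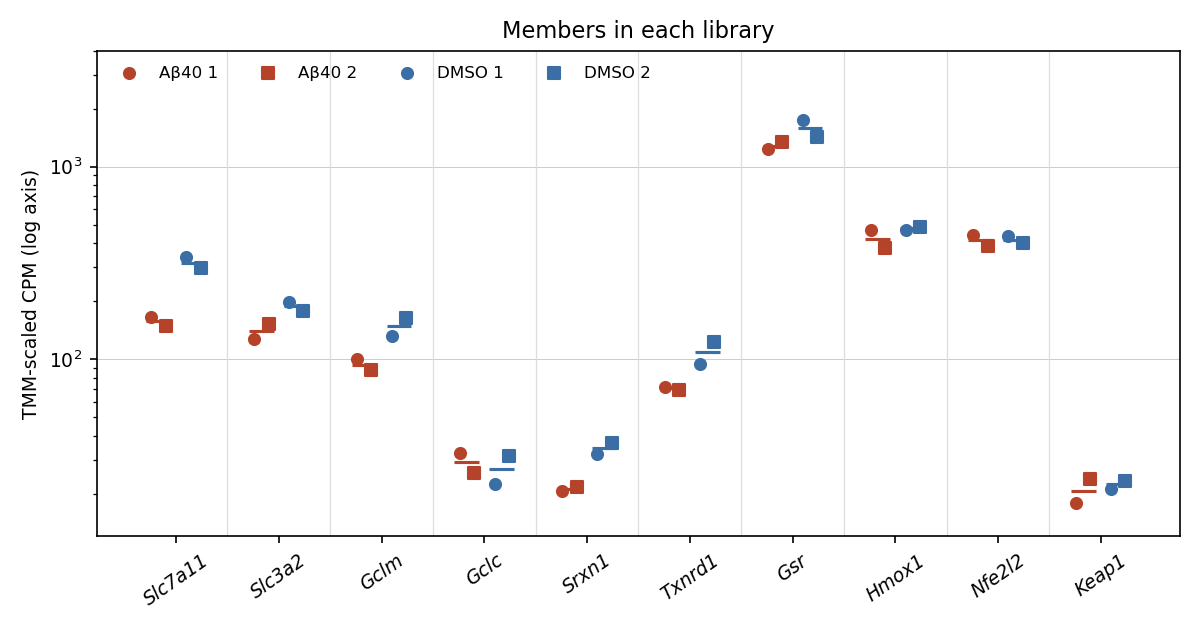
Level of each gene in each library, in TMM-scaled CPM on a log axis. Points are libraries (Aβ40 red, DMSO blue) and short lines are group means. Slc7a11 sits at 149 and 165 CPM with Aβ40, below 296 and 338 CPM with DMSO, while the points of Gclc, Nfe2l2 and Keap1 overlap.

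Slc7a11 (ENSMUSG00000027737, mm10 chromosome 3, 49892526 to 50443614, minus strand), the light chain that moves cystine, had 165 and 149 CPM in Aβ40 1 and 2, against 338 and 296 CPM in DMSO 1 and 2. The groups lay apart by a factor of 1.80 between the highest Aβ40 library and the lowest DMSO library, the widest gap among the members. The group means were 157 ± 10.8 CPM with Aβ40 and 317 ± 30.0 CPM with DMSO (SD, n = 2 each), which is -1.01 (SE 0.18) on the log2 scale. It rested on 2814 and 2855 reads with Aβ40 and on 6307 and 5497 reads with DMSO. Of all 13479 tested genes 269, or 2.00%, had a lower log2 fold change than Slc7a11. Among the 1836 tested genes that averaged 100 CPM or more, a bound chosen after the values were seen, 1 gene did. That gene was Sema4a, a membrane semaphorin, at -1.02 (SE 0.17).

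Slc3a2 (ENSMUSG00000010095, chromosome 19, 8706882 to 8723369, minus strand) encodes the heavy chain that carries xCT and several other light chains to the membrane. It had 127 and 151 CPM in Aβ40 1 and 2, against 199 and 178 CPM in DMSO 1 and 2. The groups did not overlap, and the log2 fold change of -0.44 (SE 0.18) was smaller in size than that of its light chain. The deposited FPKM, which divide counts by gene length, allow levels of different genes to be set side by side. On that scale the ratio of Slc7a11 to Slc3a2 was 0.329 and 0.250 in Aβ40 1 and 2, against 0.431 and 0.422 in DMSO 1 and 2, lower in both Aβ40 libraries.

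Gclm and Gclc encode the modifier and catalytic subunits of glutamate-cysteine ligase, the enzyme of the first step of glutathione synthesis. The groups lay apart for Gclm and overlapped for Gclc. Gclm (ENSMUSG00000028124, chromosome 3, 122245557 to 122270732, plus strand) had 99.6 and 87.2 CPM in Aβ40 1 and 2, against 133 and 163 CPM in DMSO 1 and 2, a log2 fold change of -0.66 (SE 0.18). Gclc (ENSMUSG00000032350, chromosome 9, 77754535 to 77794485, plus strand) had 32.5 and 25.7 CPM in Aβ40 1 and 2, against 22.3 and 31.2 CPM in DMSO 1 and 2. Its groups overlapped, at 0.12 (SE 0.23) on the log2 scale. Per gene length, Gclm stood at 1.84 and 2.03 times Gclc in Aβ40 1 and 2, against 3.56 and 3.13 times in DMSO 1 and 2, so the ratio was lower in both Aβ40 libraries.

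**Figure D2:**
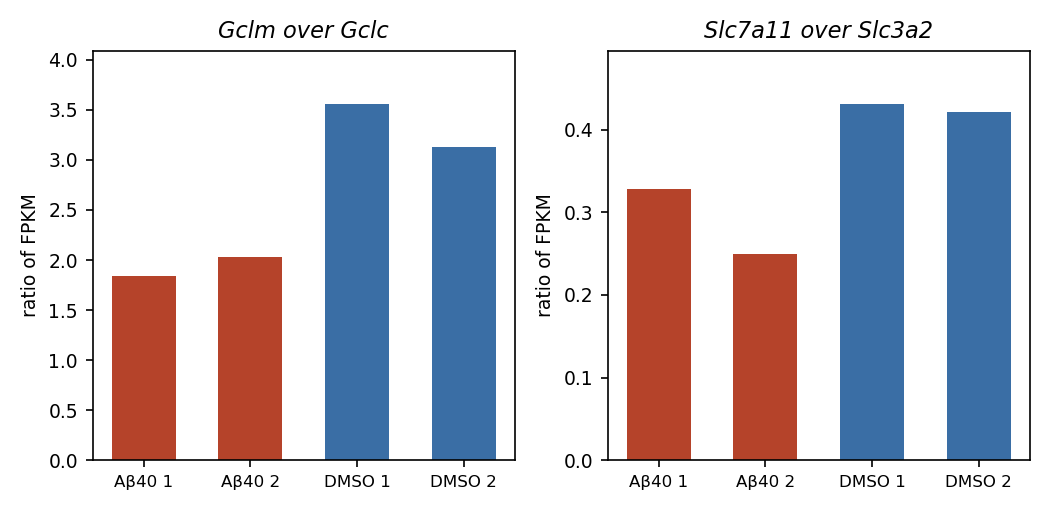
Ratio of deposited FPKM of Gclm to Gclc and of Slc7a11 to Slc3a2, 1 bar a library, with Aβ40 in red and DMSO in blue. Gclm to Gclc is 1.84 and 2.03 with Aβ40 and 3.56 and 3.13 with DMSO, and Slc7a11 to Slc3a2 is 0.329 and 0.250 with Aβ40 and 0.431 and 0.422 with DMSO.

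Srxn1, Txnrd1 and Gsr encode enzymes that return oxidised thiols to use. Srxn1 (ENSMUSG00000032802, chromosome 2, 152105516 to 152111376, plus strand), sulfiredoxin, which repairs over-oxidised peroxiredoxins, had 20.6 and 21.8 CPM in Aβ40 1 and 2, against 32.1 and 36.8 CPM in DMSO 1 and 2. Its log2 fold change was -0.70 (SE 0.20), on 352 to 684 reads a library. Txnrd1 (ENSMUSG00000020250, chromosome 10, 82833951 to 82897712, plus strand), the cytosolic thioredoxin reductase, had 71.5 and 69.3 CPM in Aβ40 1 and 2, against 93.9 and 123 CPM in DMSO 1 and 2. The Aβ40 pair of Txnrd1 differed by 1.03-fold and the DMSO pair by 1.31-fold, and the groups lay apart, at -0.62 (SE 0.19) on the log2 scale. Gsr (ENSMUSG00000031584, chromosome 8, 33652523 to 33698163, plus strand), glutathione reductase, had 1229 and 1337 CPM in Aβ40 1 and 2, against 1745 and 1425 CPM in DMSO 1 and 2. The groups of Gsr lay apart by a factor of 1.07 only, less than the spread within the DMSO pair of 1.22-fold, and its log2 fold change was -0.31 (SE 0.20).

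Hmox1 (ENSMUSG00000005413, chromosome 8, 75093621 to 75100589, plus strand), haem oxygenase 1, which breaks haem down to iron, carbon monoxide and biliverdin, had 467 and 377 CPM in Aβ40 1 and 2, against 467 and 488 CPM in DMSO 1 and 2. Aβ40 1 was at nearly the level of DMSO 1, so the place of Hmox1 among the 7 non-overlapping members rests on a gap of 1.001-fold. Its log2 fold change was -0.18 (SE 0.19). Nfe2l2 (ENSMUSG00000015839, chromosome 2, 75675513 to 75704641, minus strand), the gene of NRF2 itself, had 443 and 389 CPM in Aβ40 1 and 2, against 436 and 400 CPM in DMSO 1 and 2, and the groups overlapped at -0.01 (SE 0.18). Keap1 (ENSMUSG00000003308, chromosome 9, 21229730 to 21239361, minus strand), the gene of its inhibitor, had 17.8 and 23.7 CPM in Aβ40 1 and 2, against 21.2 and 23.4 CPM in DMSO 1 and 2, also overlapping, at -0.10 (SE 0.22). Transcript levels do not show the amount of NRF2 protein, which KEAP1 controls after translation.

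**Figure D3:**
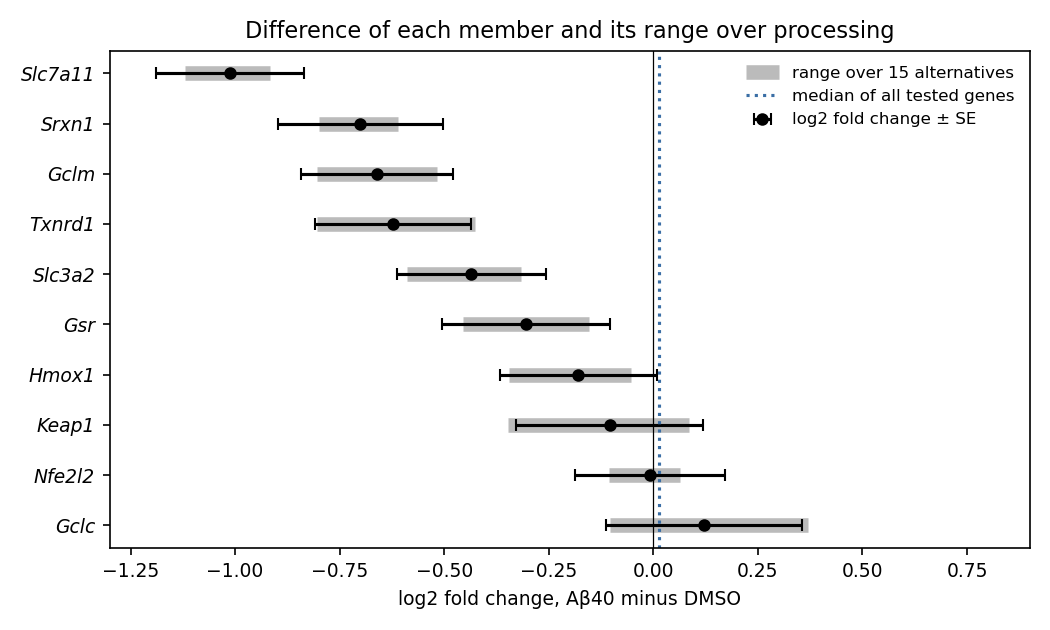
Log2 fold change of each gene (Aβ40 minus DMSO, black point) with its standard error (line) and the range over 15 alternative ways of processing (grey bar). Slc7a11, at -1.01 with a range of -1.12 to -0.92, is farthest from 0, and the bars of Keap1, Nfe2l2 and Gclc cross 0.

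Per gene length the members covered a wide range, and their order was nearly the same in both groups. Gsr was highest, at 459 ± 29.2 FPKM with Aβ40 and 573 ± 82.0 FPKM with DMSO, and Hmox1 followed at 237 ± 34.9 FPKM with Aβ40 and 271 ± 8.19 FPKM with DMSO (SD, n = 2 each). Nfe2l2 was at 108 ± 9.48 FPKM with Aβ40 and 110 ± 6.74 FPKM with DMSO (SD, n = 2 each). Slc3a2 came next, at 38.9 ± 4.99 FPKM with Aβ40 and 53.1 ± 4.24 FPKM with DMSO. These 4 genes kept their order with no overlap between neighbours in any library. Below them the levels of neighbours overlapped over the 4 libraries: Gclm ran from 13.7 to 25.8 FPKM, Slc7a11 from 10.6 to 24.2, Txnrd1 from 9.67 to 17.3, Srxn1 from 7.18 to 13.0 and Gclc from 5.90 to 8.47 FPKM. Keap1 was lowest, at 3.73 to 4.99 FPKM. Srxn1 was at 7.40 ± 0.319 FPKM with Aβ40 and 12.1 ± 1.18 FPKM with DMSO, and Gclc at 7.62 ± 1.21 FPKM with Aβ40 and 7.07 ± 1.66 FPKM with DMSO (SD, n = 2 each). The levels of these genes thus overlapped with Aβ40, while Srxn1 lay above Gclc in both DMSO libraries.

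**Figure D4:**
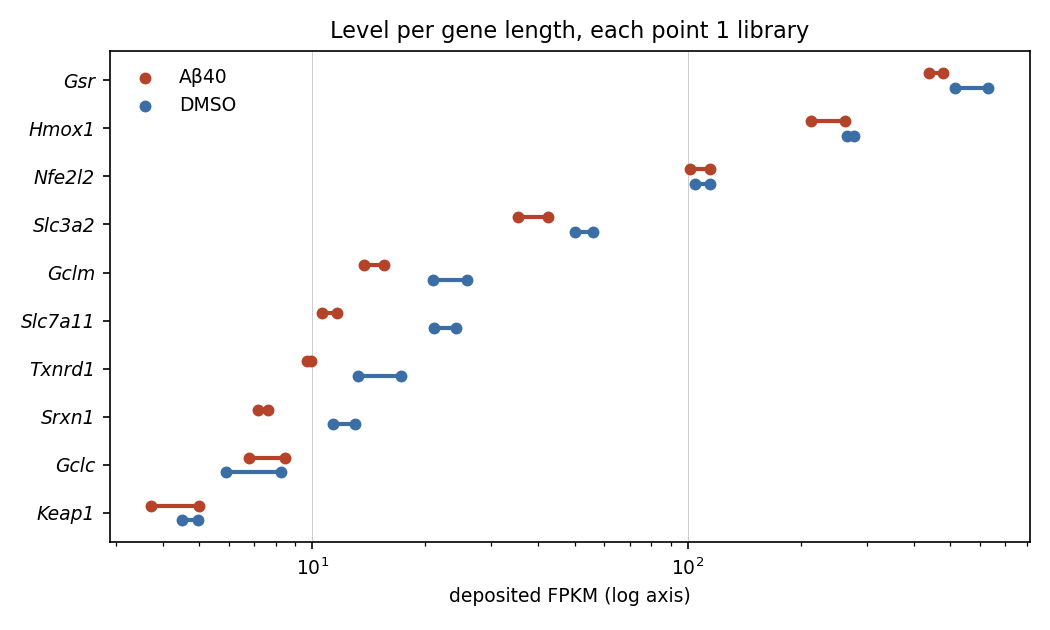
Deposited FPKM (log axis), with 1 point a library and a line joining the 2 libraries of a group, Aβ40 above DMSO. Gsr is highest and Keap1 lowest in both groups, and Srxn1 lies above Gclc with DMSO while the genes overlap with Aβ40.

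The 5 protein-coding genes whose values over the 4 libraries lay nearest to those of Slc7a11, by Euclidean distance of centred log2 CPM among 5886 genes that averaged 20 CPM or more, were Fnip2, Wdfy3, Dmxl2, Slc25a37 and Sema4a. Fnip2, a partner of the folliculin protein, was nearest, with 61.9 and 64.3 CPM in Aβ40 1 and 2, against 124 and 115 CPM in DMSO 1 and 2. The log2 fold changes of the 5 ran from -1.02 for Sema4a to -0.81 for Dmxl2. Of the other 9 members, 1 was among the 100 nearest genes, Srxn1 at rank 61, with Gclm following at rank 110. Slc3a2, the partner chain, was at rank 419 and Gclc at rank 4305. With 4 libraries, such a ranking describes these libraries only.

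Genes around the members were followed in 8 lists that leave the members out, with 163 genes tested of 184 symbols. In the edgeR test over all genes 0 of the 163 were called in either direction, where 0.126% of all tested genes were. At an unadjusted p under 0.05 in that test, 15 of the 163 were lower and 10 were higher. Of all 13479 tested genes 771, or 5.72%, were lower and 877 were higher. DESeq2 called Fth1 lower and Bach2 higher (Benjamini-Hochberg adjusted p = 0.0424 and 0.0131), beside 33 lower and 102 higher of the 11127 genes it tested. For Fth1 and Bach2 the edgeR quasi-likelihood test gave adjusted p = 0.330 and 0.129, and limma-voom called 0 list genes. The lists were written with earlier results of these data known, so nothing is read from these calls. Both Aβ40 libraries lay below both DMSO libraries for 23.9% of the 163 genes, close to the 21.9% of all tested genes, and the median log2 fold change was -0.01.

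The other NRF2 targets held values on either side of 0, with 12 of 21 negative and a median of -0.05. It was -0.21 over the 16 genes that averaged 5 CPM or more. Over 15 alternatives the list median stayed negative and ran from -0.20 to -0.02. It was -0.12 with limma-voom, -0.08 without DMSO 1, -0.16 without DMSO 2 and -0.20 without Aβ40 2. Both Aβ40 libraries lay below both DMSO libraries for 9 of the 21, or 42.9%, and above for 6. Of all tested genes 21.9% lay below. This list too was written with earlier results known, so nothing is read from that share. Fth1, the ferritin heavy chain that stores iron, had 4636 and 5776 CPM in Aβ40 1 and 2, against 11747 and 7210 CPM in DMSO 1 and 2. Its groups lay apart, with a wide DMSO pair. Ftl1, the light chain, had 1698 and 1917 CPM in Aβ40 1 and 2, against 2601 and 2876 CPM in DMSO 1 and 2, and Tfe3, a transcription factor of lysosomal genes, was at -0.65 (SE 0.17) on the log2 scale. Nqo1, the quinone reductase often used as a readout of NRF2, went the other way, with 20.5 and 15.1 CPM in Aβ40 1 and 2, against 12.6 and 14.5 CPM in DMSO 1 and 2, at 0.39 (SE 0.24). Its relative Nqo2 was at 0.30 (SE 0.17).

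Among 23 genes that regulate NRF2 and KEAP1, 18 had a negative log2 fold change, and the median was -0.30. It was nearer to 0 without DMSO 1 (-0.19), DMSO 2 (-0.20) or Aβ40 1 (-0.20). Both Aβ40 libraries lay below both DMSO libraries for 12 of them, or 52.2%, where 21.9% of all tested genes did, and above for 3. This list was written with earlier results of these data known, so nothing is read from that share. Bach1, a repressor that competes with NRF2 for the same elements, had 188 and 174 CPM in Aβ40 1 and 2, against 229 and 232 CPM in DMSO 1 and 2. Bach2, a related repressor with known roles in lymphocytes, had 25.3 and 29.0 CPM in Aβ40 1 and 2, against 13.1 and 12.9 CPM in DMSO 1 and 2, at 1.07 (SE 0.21). The coactivator gene Crebbp was at -0.54 (SE 0.19), Maf at -0.51 (SE 0.21), the small Maf gene Maff at 0.51 (SE 0.31), and Rbx1, a part of the ligase that KEAP1 recruits, at -0.07 (SE 0.22).

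Other transporters and cysteine genes had a median of -0.08 over 13 genes, which was -0.23 without DMSO 1, -0.20 without Aβ40 1 and 0.05 without DMSO 2. Slc7a5, another light chain that pairs with SLC3A2, had 15.3 and 18.4 CPM in Aβ40 1 and 2, against 22.7 and 29.0 CPM in DMSO 1 and 2, at -0.62 (SE 0.23). Slc7a8, a further light chain of SLC3A2, was at -0.30 (SE 0.21), and the neutral amino acid transporter genes Slc38a2, Slc1a5 and Slc38a1 were at -0.27 (SE 0.17), -0.08 (SE 0.19) and 0.06 (SE 0.19). Mfsd12, needed for cysteine entry into lysosomes and melanosomes, was at 0.15 (SE 0.29).

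Of 31 glutathione genes 17 were positive (median 0.08), and of 23 thioredoxin and peroxiredoxin genes 14 were positive (median 0.14). The glutathione median was 0.15 without DMSO 1 and -0.002 without Aβ40 2, and the thioredoxin median was 0.27 without DMSO 1, -0.06 without DMSO 2 and 0.01 without Aβ40 2, so neither kept its sign. Gpx1, a glutathione peroxidase and the most abundant gene of its list, had 1150 and 1131 CPM in Aβ40 1 and 2, against 1174 and 985 CPM in DMSO 1 and 2. Prdx5 and Msrb1, a peroxiredoxin and a methionine sulfoxide reductase, were the most abundant of the thioredoxin list, at -0.13 (SE 0.27) and -0.10 (SE 0.21). Gstp1, a glutathione transferase with close relatives that may share its reads, had 7.84 and 9.89 CPM in Aβ40 1 and 2, against 24.4 and 11.5 CPM in DMSO 1 and 2, at -1.02 (SE 0.35). Its DMSO pair differed more than its Aβ40 pair. Hagh, which frees glutathione in the glyoxalase pathway, was at 0.76 (SE 0.24) and the glutathione transferase Gstt2 at 0.67 (SE 0.27). Glrx5, a mitochondrial glutaredoxin, was at -0.67 (SE 0.32), and Esd, an esterase acting on S-formylglutathione, at -0.05 (SE 0.21). Prdx3 and Prdx4 were at 0.54 (SE 0.20) and 0.39 (SE 0.29), and Sesn2 and Prdx6 at -0.42 (SE 0.24) and -0.32 (SE 0.21).

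In the ATF4 list, chosen because Slc7a11 is also a known ATF4 target, 15 of 22 genes were positive and the median was 0.12, or 0.08 without DMSO 2. Atf4 had 332 and 389 CPM in Aβ40 1 and 2, against 368 and 267 CPM in DMSO 1 and 2, so its groups overlapped. Psph, of serine synthesis, and Eif2s1, the translation factor whose phosphorylation raises ATF4, were at 0.60 (SE 0.22) and 0.68 (SE 0.19), while Cebpb was at -0.66 (SE 0.29) and Aldh18a1, of proline synthesis, at -0.29 (SE 0.25). The NADPH supply list had a median of -0.01 over 15 genes, which lay between -0.09 without DMSO 2 and 0.02 without DMSO 1, with -0.02 without Aβ40 1 and -0.08 without Aβ40 2. In it Pgd and Tkt, of the pentose phosphate pathway, were at -0.40 (SE 0.19) and -0.38 (SE 0.20), Taldo1 at -0.10 (SE 0.20), Nadk at 0.13 (SE 0.20) and Rpe at 0.31 (SE 0.18). G6pdx, the first enzyme of that pathway, had 254 and 177 CPM in Aβ40 1 and 2, against 99.4 and 212 CPM in DMSO 1 and 2, at 0.47 (SE 0.33), and its groups overlapped. The haem list had a median of 0.17 over 15 genes, which was 0.03 without DMSO 2, 0.11 without Aβ40 1 and 0.09 without Aβ40 2. Over 15 alternatives the haem median ran from 0.03 to 0.20. It was 0.03 over the 14 genes that averaged 5 CPM or more. In the haem list Hmox2, the constitutive haem oxygenase, was at 0.17 (SE 0.18). Alas1, the first enzyme of haem synthesis outside the erythroid lineage, was at -0.53 (SE 0.18), and its erythroid counterpart Alas2 at 0.67 (SE 0.26). Lrp1, a receptor of haem-haemopexin, was at -0.63 (SE 0.22), and the transporter gene Abcg2 at 0.52 (SE 0.34).

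**Figure D5:**
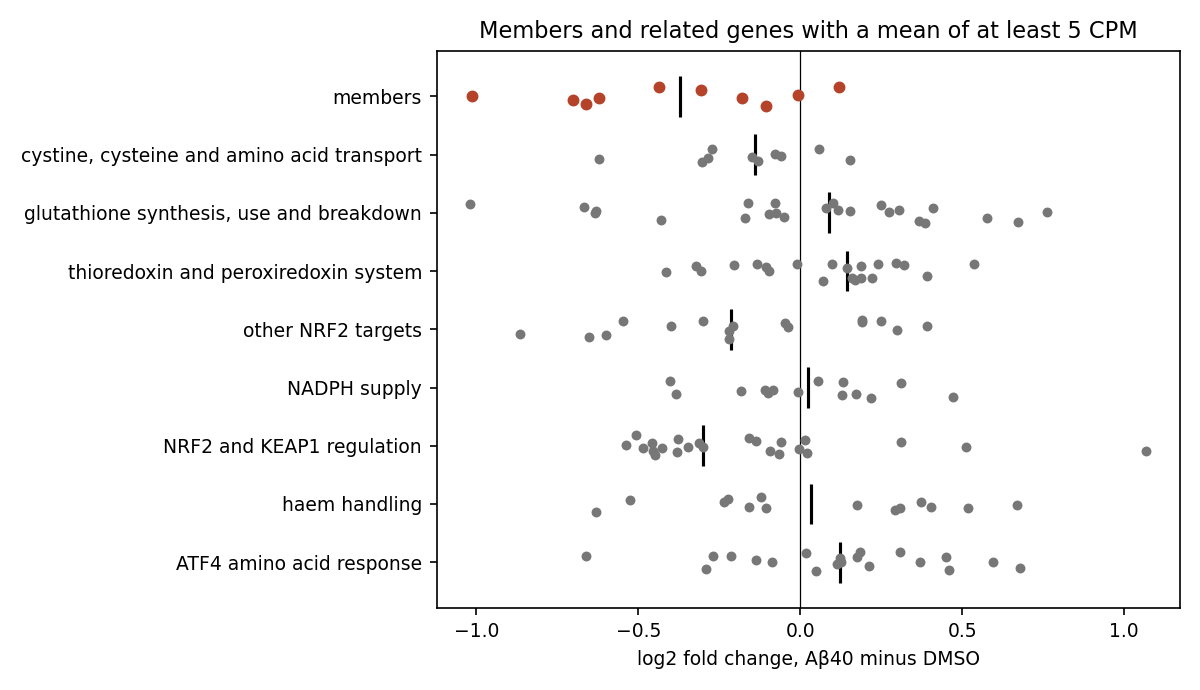
Log2 fold change (Aβ40 minus DMSO) of the 10 members (red, top row) and of genes of the 8 related lists that averaged 5 CPM or more (grey), with the median of each row as a vertical line. The members have a median of -0.37, the NRF2 and KEAP1 regulators of -0.30, and the thioredoxin list of 0.14. Some medians drawn differ from those in the text, which cover all tested genes of a list.

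Markers of several other cells were higher with Aβ40, and in bulk RNA more cells of a type and more RNA per cell cannot be told apart. All 15 B cell markers had a positive log2 fold change, and their summed level was 2004 and 2102 CPM in Aβ40 1 and 2, against 1210 and 1205 CPM in DMSO 1 and 2. All 10 eosinophil markers were positive too, with sums of 3684 and 3742 CPM in Aβ40 1 and 2, against 1687 and 1405 CPM in DMSO 1 and 2. T and NK cell markers (14 of 14 tested positive) summed to 151 and 161 CPM in Aβ40 1 and 2, against 102 and 94.8 CPM in DMSO 1 and 2. In each of these 3 lists both Aβ40 sums lay above both DMSO sums. Monocyte and macrophage markers (11 of 14 positive) summed to 3846 and 3358 CPM in Aβ40 1 and 2, against 2963 and 2870 CPM in DMSO 1 and 2. Dendritic cell markers (11 of 12 positive) ran from 1184 to 1385 CPM with Aβ40 and from 913 to 920 CPM with DMSO. The sums of these lists did not overlap between the groups either. Erythroid markers (5 of 10 tested positive) summed to 3794 and 3889 CPM in Aβ40 1 and 2, against 5274 and 2327 CPM in DMSO 1 and 2, so that the DMSO libraries lay on either side of the Aβ40 pair. Basophil and mast cell markers (6 of 9 positive) ran from 962 to 983 CPM with Aβ40 and from 903 to 905 CPM with DMSO. Platelet markers (0 of 5 tested positive) ran from 29.5 to 31.5 CPM with Aβ40 and from 31.9 to 35.6 CPM with DMSO. Of all these markers 1, Gp1bb of platelets, was at 0 in every library. The part of these cells in the members' values was not tested.

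Leaving out a library leaves its group with 1 library, which is then assumed to vary like the pair of the other group. Calls became more frequent over all genes without either DMSO library, so nothing is read from those of the members. Without DMSO 1, the edgeR quasi-likelihood test called 4 members lower, Slc7a11, Gclm, Srxn1 and Txnrd1, beside 3.29% of all tested genes. Without DMSO 2 it called 2, Slc7a11 and Slc3a2, beside 3.28%. Without Aβ40 1 or Aβ40 2 it called 0 members and 0 of all tested genes lower. The log2 fold change of Slc7a11 in these 4 fits ran from -1.12 to -0.92, while that of Txnrd1 ran from -0.81 without DMSO 1 to -0.43 without DMSO 2. Gclc was at -0.10 without DMSO 1, -0.06 without Aβ40 1, 0.26 without Aβ40 2 and 0.37 without DMSO 2. Hmox1 ran from -0.34 without Aβ40 1 to -0.05 without Aβ40 2, and Gsr from -0.46 without DMSO 2 to -0.15 without DMSO 1. Keap1 was at 0.08 without Aβ40 1 and -0.35 without Aβ40 2.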

How the data were processed

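RNA was sequenced in 4 libraries of bone marrow neutrophils, 2 given Aβ40 and 2 given DMSO. Build mm10 and the tools featureCounts 1.5.0-p3 and HISAT2 2.0.5 appear in the submitters' processing notes, without roles. No source used here gives the annotation or strandedness. The authors deposited raw counts per gene and FPKM. The deposited FPKM equal counts per gene length and per an effective library size that lay between 0.960 and 1.09 times the total counts, as checked on the values. Counts were tested in R 4.3.3 with edgeR 4.0.16 (filterByExpr, TMM scaling, quasi-likelihood test, Benjamini-Hochberg over 13479 genes); CPM are TMM-scaled, SD are over 2 libraries, and SE come from the fit. The fit had 2 residual and 6.88 prior degrees of freedom. One read was worth 0.0512 to 0.0581 CPM. The pair of libraries in each group differed by far more than sampling noise (chi-square per degree of freedom 38.9 for DMSO and 12.4 for Aβ40). With 2 against 2, an exact permutation test cannot reach a p under 0.05 and none was run.

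The members and all gene lists were chosen with earlier results of these data known. Per list, the named genes were any called gene, the 2 lowest and 2 highest log2 fold changes at a mean of at least 5 CPM, and the 2 most abundant. Of the list symbols, 3 (Ddit3, Nnt and Wdr23) were not used because they matched no single row. Among the members, 6 overlap other annotated genes, none of which had more than 21 reads in a library; for Keap1 the antisense gene Gm16754 reached 4.37% of its reads. Promoters came from RefSeq (GRCm38.p6). Alternatives were other scalings, DESeq2 1.42.0, limma 3.58.1 (voom, or log2(FPKM + 1) and log2(FPKM + 0.1)), other filters, a replicate block and leaving out each library.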

Additional observations from a re-analysis of the deposited data

How the results depend on the processing

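The 7 members below both DMSO libraries became 6 to 8 over 15 alternatives, and the members' median log2 fold change stayed negative in all 15; it was -0.41 with library size only, and -0.49 to -0.28 with a library left out. Slc7a11, Srxn1, Gclm, Txnrd1, Slc3a2, Gsr and Hmox1 kept a negative value in all 15, while Keap1, Nfe2l2 and Gclc changed sign in 1, 3 and 2. The calls depended more on the choices, and the cause was not tested. Genes called higher and lower were 102 and 33 with DESeq2, 185 and 70 with no filter on low counts, 0 higher with limma on log2(FPKM + 1) or on log2(FPKM + 0.1), 1 lower with library size only, and 0 to 805 higher and 0 to 471 lower with a library left out. Members called were 1, Slc7a11, with library size only, DESeq2 or no filter. Over all genes these called 25 of 13479, 135 of 11127 and 255 of the unfiltered genes, of which 1, 33 and 70 were lower. The number of unfiltered genes is not given, so no share stands beside that last call and nothing is read from it. List genes called were 1 higher and 1 lower with DESeq2, 2 and 2 with no filter, and 0 to 11 in each direction with a library left out. Members above both DMSO libraries numbered 0 to 2 with a library left out. A single library in a group lies apart from the other pair more easily for any gene. The share of all genes lying apart was not counted in the alternatives, so nothing is read from the numbers of members below or above. With the replicate block 27 genes were called higher and 0 members. The labels share only a number, and same-numbered deviations correlated at -0.19 over genes. A crossed replicate block, added after the data were seen, called 445 higher and 276 lower of 13479 genes. It called 4 members, and 6 list genes in each direction, from which nothing is read. The scarcest member, Keap1, had at least 304 reads a library, and each group held 2 libraries, which limits every comparison here.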
